A study of Mus musculus with 32 samples.

Results

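Protein phosphatase subunits were followed through the first wave of spermatogenesis in the mouse. The members were all protein-coding genes of GENCODE mouse release M21 whose symbols begin with Ppp or Ppm and a number. Of 87 such symbols, 75 were in the juvenile gene table of 20368 genes, which holds genes that reached 3 TPM in at least 1 mouse. TPM, the unit of all levels given here, is a transcript abundance corrected for length and scaled to a fixed library total. The other 12 symbols did not reach that level in any juvenile mouse. The 75 members were 20 catalytic subunits (11 Ppp genes and 9 Ppm genes) and 55 regulatory subunits. RNA was sequenced from germ cells of 28 male C57BL/6J mice, each mouse a sample of its own, with 3 mice at 8 days postpartum (dpp) and 5 mice at each of 10, 12, 14, 16 and 18 dpp. Per the paper, 5 mice were sampled at 8 dpp, and those that matched poorly with others of their age were left out. The 3 mice of 8 dpp are therefore a selected set. The groups of mice differed in age, and no treatment or altered gene is given for any of them. A second table held 4 samples of adult pachytene and diplotene spermatocytes, from C57BL/6J males of 9 weeks, enriched by sedimentation at unit gravity (STA-PUT), each pooled from several mice. TPM keeps no read depth, so the depth behind each value is unknown.

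Protein phosphatases remove phosphate groups that kinases add to serine and threonine. The Ppp enzymes, protein phosphatase 1 (PP1), PP2A, calcineurin, PP4, PP5 and PP6, use few catalytic subunits, and a large set of regulatory subunits directs them to substrates or inhibits them. The Ppm enzymes are metal-dependent phosphatases that mostly work without such partners. In the testis, the gamma catalytic subunit of PP1, encoded by Ppp1cc, is needed for sperm formation, and the calcineurin pair Ppp3cc and Ppp3r2 is needed for sperm motility.

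The labelled cell types were checked against marker genes. The summed level of 4 germ cell markers was 548 to 684 TPM at 8 dpp, 1251 to 1549 TPM at 18 dpp and 2199 to 2276 TPM in the adult samples. Of these markers Ddx4 and Mael rose between 8 and 18 dpp, Dnd1 fell and Dazl was not called. The summed level of 6 spermatogonium markers was 838 to 968, 390 to 560 and 26.3 to 32.4 TPM in the same groups. The summed level of 6 spermatocyte markers was 201 to 290 TPM at 8 dpp, 3313 to 5109 TPM at 18 dpp and 9448 to 9843 TPM in the adult samples. The summed level of 8 Sertoli cell markers, which are somatic and not germ cell genes, was 7374 to 8376 TPM at 8 dpp, 3528 to 4676 TPM at 18 dpp and 318 to 463 TPM in the adult samples. Of the Sertoli markers 7 of 8 fell and Rhox5 rose between 8 and 18 dpp, all 6 spermatogonium markers fell, and all 6 spermatocyte markers rose. The sum of 5 peritubular smooth muscle markers was 1051 to 1160 TPM at 8 dpp, 524 to 1034 TPM at 18 dpp and 5.57 to 10.7 TPM in the adult samples. Mice 4 and 5 at 18 dpp stood apart, with spermatocyte sums of 3364 and 3313 TPM, against 5006, 5109 and 5073 TPM in mice 1 to 3. Their Sertoli sums were 4676 and 4647 TPM, against 3611, 3528 and 3691 TPM in mice 1 to 3. Of other lists, 4 of 5 macrophage, 3 of 6 Leydig, 1 of 4 endothelial and 0 of 5 red blood cell markers rose between 8 and 18 dpp. The sum of 6 spermatid markers was 2.48 to 5.67 TPM at 8 dpp, 6.13 to 17.0 TPM at 18 dpp and 872 to 1189 TPM in the adult samples. The part of these shifts in the results was not tested, and in bulk samples fewer cells of a type and less RNA per cell cannot be told apart.

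Most phosphatase subunits differed between 8 and 18 dpp, and they divided between rises and falls. Of the 75 members 30 rose and 35 fell (limma, adjusted p under 0.05), where 31.8% of all genes rose and 36.3% fell, 68.2% in all. Among catalytic subunits 7 of 20 rose (35%) and 7 fell (35%), and among regulatory subunits 23 of 55 rose (41.8%) and 28 fell (50.9%). The regulatory rises include Ppp3r2, Ppp1r36, Ppp1r42, Ppp1r1c, Ppp1r27, Ppp1r32 and Ppp1r3c, which were under 3 TPM at 8 dpp. Such genes were in the gene table only through later ages, and no rising catalytic subunit was among them. The shares of rises in the classes depend in part on that filter and are not set against each other. The median log2 fold change was -0.16 for catalytic and -0.24 for regulatory subunits, against -0.09 over all genes. The fold changes ranged from -1.71 to 1.86 for the 20 catalytic and from -2.05 to 6.70 for the 55 regulatory subunits. Over all genes they ranged from -4.34 to 9.65. A range widens with the number of genes, so the ranges of the classes are not set against each other. Fold changes were taken on log2(TPM + 1), which understates the change of genes of low level. Over all 6 ages 70 of the 75 members differed, where 77.6% of all genes did. With 18 dpp mice 4 and 5 left out, 7 catalytic and 22 regulatory subunits rose, and 9 catalytic and 28 regulatory subunits fell. Scaling by median-of-ratios moved the median of all genes by 0.14 and gave 31 rises and 28 falls. Quantile normalization moved that median by -0.17 and gave 27 rises and 38 falls. The shares of all genes called under these scalings, or without mice 4 and 5, were not counted. These counts therefore do not show whether members moved differently from other genes. The 30 rises all remained under median-of-ratios scaling. The 7 falls lost there lay between -0.41 and -0.18 on the log2 scale under TPM, in Ppp1r14b, Ppp1r15a, Ppp1r21, Ppp2r2a, Ppp4c, Ppp4r3a and Ppp6r3. Quantile normalization lost the rises of Ppm1m, Ppp1r26 and Ppp1r3c and added falls of Ppm1e, Ppm1k and Ppp1cb.

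**Figure D1:**
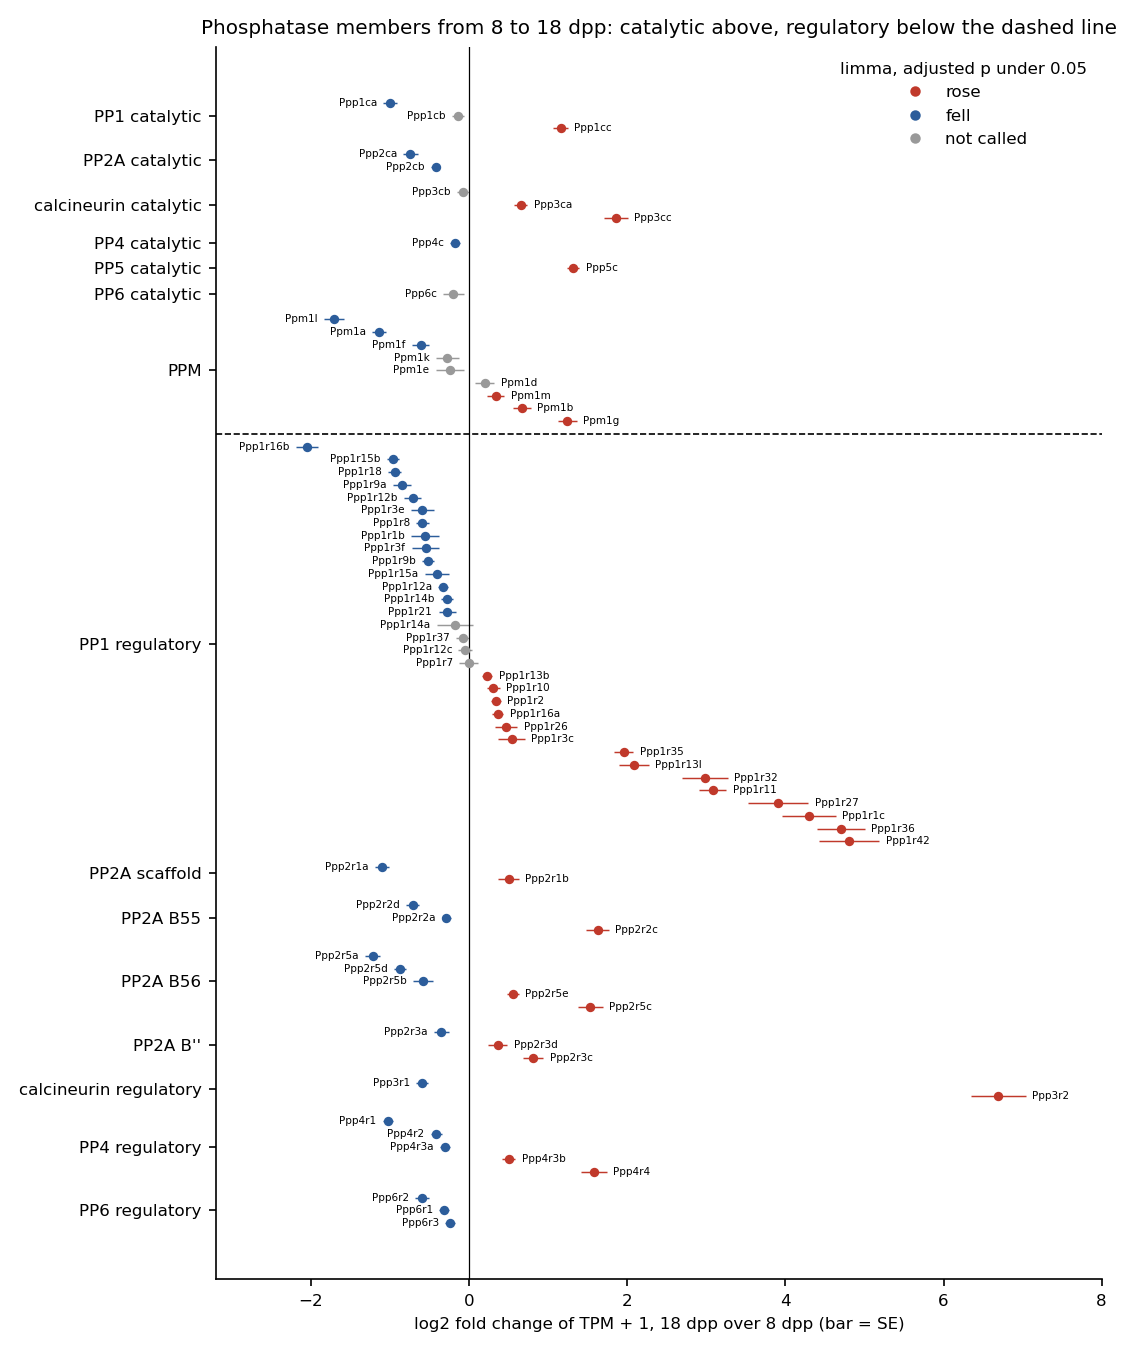
Fitted fold change of each of the 75 subunit genes from 8 to 18 dpp on log2(TPM + 1), 1 point a gene, grouped by family and coloured by whether limma called it a rise, a fall or neither, with bars for the standard error. The 20 catalytic subunits, above the dashed line, lie between -1.71 and 1.86, and the 55 regulatory subunits between -2.05 and 6.70. A range widens with the number of genes, so these ranges are not set against each other. The highest value is that of Ppp3r2, which was in the gene table only through its values at later ages.

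The numbers of members called at each age step went up and down with the shares of all genes called. Between 8 and 10 dpp limma called 0 members, where 1.2% of all genes were called (0.977% rising and 0.226% falling). At an unadjusted p under 0.05 there were 12 of the 75 members and 2337 of all 20368 genes. From 10 to 12 dpp 9 members rose and 11 fell, beside 12% of all genes rising and 9.39% falling, 21.4% in all. Ppm1m, a phosphatase that dampens inflammatory kinase signals, rose from 73.7 ± 5.99 TPM (SD, n = 5) to 123 ± 11.9 TPM at this step, and Ppp1r16b fell from 39.6 ± 6.49 to 18.7 ± 2.97 TPM. From 12 to 14 dpp limma again called 0 members, beside 0.172% of all genes (0.157% rising and 0.0147% falling). At an unadjusted p under 0.05 there were 8 of the 75 members and 1962 of all 20368 genes. From 14 to 16 dpp 19 rose and 15 fell, beside 12.7% and 11.3% of all genes, 24% in all. From 16 to 18 dpp 25 rose and 31 fell, beside 23.4% and 30.6% of all genes, 54% in all. By the sample titles, 13 of the 15 libraries from 14 dpp on carried an index sequence that a library of 8, 10 or 12 dpp carried too, and the other 2, both of 14 dpp, did not. The 18 against 8 dpp comparison and the step from 12 to 14 dpp cross between these younger and older ages. How libraries were grouped for sequencing is not given in the sources used here, and its part was not tested. Contrasts within the younger and within the older ages were added after the data were seen. From 8 to 12 dpp 12 members rose and 11 fell, beside 13% and 10% of all genes, 23.1% in all. From 14 to 18 dpp 26 rose and 37 fell, beside 26.3% and 42.1% of all genes, 68.4% in all.

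Among the catalytic subunits of PP1, Ppp1cc rose while Ppp1ca fell. Ppp1cc (chr5:122158278-122175273, mm10, plus strand) was at 326, 301 and 313 TPM in the 3 mice of 8 dpp, and at 786, 782, 807, 598 and 568.2 TPM in mice 1 to 5 of 18 dpp. All 5 mice of 18 dpp were above all 3 of 8 dpp, with the lowest levels in mice 4 and 5. Such a gap between both ages was found in 29% of all genes in the rising and 32% in the falling direction. Its log2 fold change was 1.16 (SE 0.094, adjusted p = 2.24e-11). Ppp1ca (chr19:4192065-4195420, plus strand), the alpha subunit, was at 396, 431 and 421 TPM at 8 dpp and at 181, 189, 180, 251 and 252 TPM at 18 dpp, again without overlap. It fell by 0.99 on the log2 scale (SE 0.088, adjusted p = 1.43e-10), and it overlaps Rad9a on the opposite strand. Whether the libraries kept strand is not given in the sources used here, so reads of overlapping genes may be shared. Ppp1cb, the beta subunit, was at 92.3 ± 4.70 TPM (SD, n = 3) at 8 dpp and 84.2 ± 8.93 TPM (SD, n = 5) at 18 dpp, with overlapping groups and a log2 fold change of -0.14 (adjusted p = 0.122). The Ppp1cb value turned to 0.04 under median-of-ratios scaling and passed the test under quantile normalization (-0.23, adjusted p = 0.0118) and without 18 dpp mouse 4 (adjusted p = 0.0498). Without both 18 dpp mice 4 and 5 it was -0.23 and passed the test (adjusted p = 0.0127). As a share of the summed TPM of these 3 genes, Ppp1cc went from 38.1% ± 1.70 at 8 dpp to 70.2% ± 6.74 at 18 dpp, and Ppp1ca from 50.6% ± 1.94 to 21.3% ± 5.38. The adult samples, which were normalized in a table of their own, held 97.2% ± 0.159 (SD, n = 4) of this sum in Ppp1cc and 0.613% in Ppp1ca. A processed pseudogene of Ppp1cc, Ppp1ccb, was listed at a mean of 94.4 TPM at 18 dpp and 276 TPM in the adult samples, and reads of both genes may be split between them.

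The rise of Ppp1cc came with a change of transcript. The annotation holds a long coding form, ENSMUST00000086294, of 8 exons and 337 codons, and a short coding form, ENSMUST00000102528, of 7 exons and 323 codons. The long form is spliced across an intron of 864 bases (chr5:122174116-122174979) that the short form keeps, so the proteins end differently. The long form encodes the testis-enriched gamma 2 protein and the short form gamma 1, and the coding ends are printed here because the usage result turns on them. In both, the last shared exon of 61 bases (chr5:122174055-122174115, GRCm38, plus strand) is in lower case, and the capitals mark the coding bases, stop included, that the other form lacks.
Ppp1cc long form: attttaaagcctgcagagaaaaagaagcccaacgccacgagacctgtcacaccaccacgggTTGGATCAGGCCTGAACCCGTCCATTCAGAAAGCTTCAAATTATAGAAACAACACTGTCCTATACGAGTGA
Ppp1cc short form: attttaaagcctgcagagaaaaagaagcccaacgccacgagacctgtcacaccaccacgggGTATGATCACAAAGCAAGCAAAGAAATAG

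Of 137 transcripts tested in 40 member genes, 4 transcripts of 2 genes changed their share of the gene's TPM by at least 20 percentage points between 8 and 10 dpp and 16 and 18 dpp (limma, adjusted p under 0.05), where 2.11% of all transcripts and 4.81% of all genes did. With a change of at least 10 points the count was 17 transcripts of 11 genes, beside 6.19% of all transcripts. The long form of Ppp1cc went from 21.1% ± 4.01 (SD, n = 8) to 62.1% ± 14.2 (SD, n = 10), a rise of 41.0 points (SE 5.03, adjusted p = 3.44e-05). The short form went from 69.0% ± 3.83 to 31.3% ± 12.5 (adjusted p = 2.46e-05). At 8 and 14 dpp the level of the long form was 62.1 ± 15.6 and 93.7 ± 13.2 TPM, and it reached 226 ± 51.5 TPM at 16 dpp and 530 ± 139 TPM at 18 dpp. The short form was at 220 ± 11.04 TPM at 8 dpp, 223 ± 7.15 TPM at 14 dpp and 143 ± 16.8 TPM at 18 dpp. At 18 dpp the long form held 64.0% to 81.1% of the gene's TPM, and at 8 dpp 15.5% to 23.9%. Shares of transcripts are estimates made by RSEM from reads that both forms largely share.

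The other gene with changed usage was Ppp2r5c, which encodes the gamma subunit of the B56 family that directs PP2A to its substrates. The form ENSMUST00000084985 has an exon of 117 bases (chr12:110574745-110574861, GRCm38, plus strand) that ENSMUST00000109832 lacks, and these forms encode 524 and 485 codons. The forms also differ at their annotated ends. The coding bases around that exon are printed to show what is gained, with the exon in capitals and 24 bases of the neighbouring exons on each side in lower case.
Ppp2r5c extra exon: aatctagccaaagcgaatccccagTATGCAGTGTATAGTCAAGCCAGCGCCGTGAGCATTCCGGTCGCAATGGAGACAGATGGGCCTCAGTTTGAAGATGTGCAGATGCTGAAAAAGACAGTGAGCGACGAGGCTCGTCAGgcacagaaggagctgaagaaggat
Ppp2r5c without it: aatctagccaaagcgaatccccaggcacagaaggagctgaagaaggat

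The form with the exon went from 19.04% ± 5.203 (SD, n = 8) of the gene's TPM at 8 and 10 dpp to 55.4% ± 15.8 (SD, n = 10) at 16 and 18 dpp (SE of the difference 5.68 points, adjusted p = 0.000321). Its level was 6.75 ± 1.93 TPM at 8 dpp, 27.3 ± 9.34 TPM at 16 dpp and 85.1 ± 40.0 TPM at 18 dpp. The form without the exon was at 33.7 ± 3.34 TPM at 8 dpp and 38.6 ± 8.45 TPM at 18 dpp, so the added TPM of the gene was mostly in the form with the exon.

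**Figure D2:**
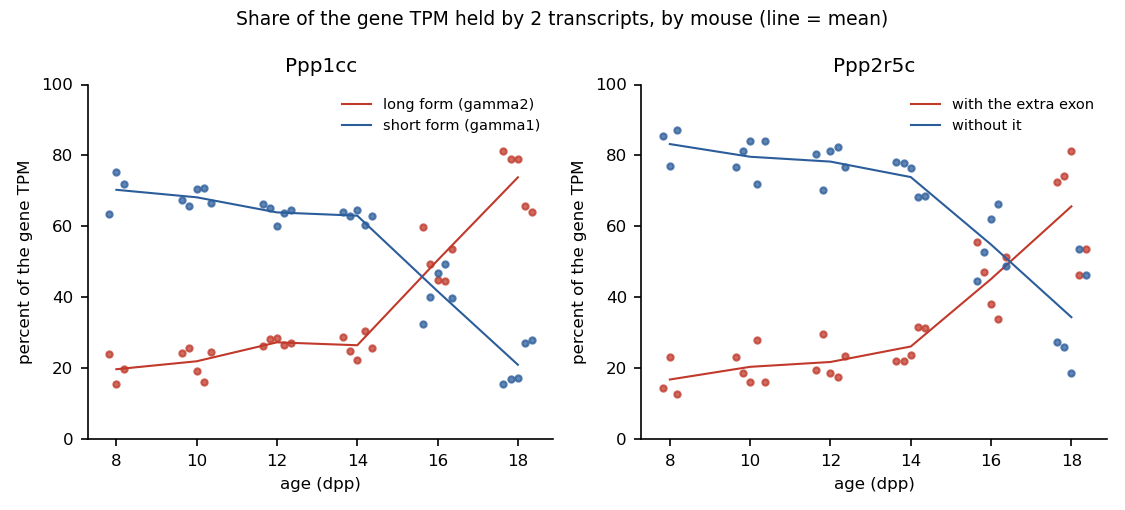
Share of the gene's TPM held by the named transcripts of Ppp1cc and Ppp2r5c in each mouse by age in dpp, with lines at the means. The long form of Ppp1cc held 15.5% to 23.9% in the 8 dpp mice and 64.0% to 81.1% in the 18 dpp mice, and the Ppp2r5c form with the extra exon held 12.8% to 23.01% and 46.3% to 81.4% in the same mice.

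The regulatory subunits of PP1 held the largest group, with 14 of 32 rising (43.8%) and 14 falling (43.8%), beside 31.8% and 36.3% of all genes. Among the rising genes Ppp1r36, Ppp1r42, Ppp1r1c, Ppp1r27, Ppp1r32 and Ppp1r3c were at under 3 TPM in all mice of 8 dpp. Such genes were in the gene table only because a mouse of a later age reached 3 TPM. A gene this low at 8 dpp without higher values later could not be listed, so their rises depend in part on that filter. Ppp1r36 was at 1.64, 1.84 and 1.76 TPM in the mice of 8 dpp and at 102, 101, 89.2, 48.0 and 39.5 TPM in mice 1 to 5 of 18 dpp. It had 4.71 as its log2 fold change (SE 0.30, adjusted p = 2.16e-13), with the lowest of the 18 dpp values in mice 4 and 5. Ppp1r42, a leucine-rich protein of the testis, was listed at 0.25, 0, and 0 TPM at 8 dpp and at 47.3, 40.2, 39.2, 17.2 and 16.0 TPM at 18 dpp (log2 fold change 4.80, adjusted p = 1.87e-11). Ppp1r1c was at 0.07, 0 and 0 TPM at 8 dpp and at 34.8, 26.2, 30.3, 9.95 and 8.88 TPM at 18 dpp. Ppp1r27 was at 0, 0 and 0.31 TPM at 8 dpp and at 24.4, 31.6, 19.1, 6.34 and 8.85 TPM at 18 dpp. Both genes were higher in every mouse of 18 dpp than in any of 8 dpp, with log2 fold changes of 4.30 and 3.91. Ppp1r32 went from 2.28 ± 0.48 TPM to 26.9 ± 11.5 TPM (log2 fold change 2.98, adjusted p = 7.22e-10).

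Promoter sequence was examined for the 4 largest fitted rises on log2(TPM + 1) with an entry in the promoter table from RefSeq (GRCm38.p6), which had an entry for 62 of the 75 members. Bases upstream of the start are printed for Ppp3r2 (chr4:49682025-49682233, minus strand), Ppp1r36 (chr12:76417349-76417537, plus strand), Ppp1r1c (chr2:79707530-79707779, plus strand) and Ppp1r27 (chr11:120551133-120551382, minus strand), which were all near 0 to 2 TPM at 8 dpp. The capitals mark the core of the MYB motif, CAGTT or its reverse complement AACTG, which was found once in each printed window other than that of Ppp1r1c. The other motifs searched were in none of the 4.
Ppp3r2: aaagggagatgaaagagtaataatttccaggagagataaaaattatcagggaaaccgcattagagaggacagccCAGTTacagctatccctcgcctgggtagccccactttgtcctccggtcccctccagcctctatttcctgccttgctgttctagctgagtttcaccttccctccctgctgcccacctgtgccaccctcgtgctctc
Ppp1r36: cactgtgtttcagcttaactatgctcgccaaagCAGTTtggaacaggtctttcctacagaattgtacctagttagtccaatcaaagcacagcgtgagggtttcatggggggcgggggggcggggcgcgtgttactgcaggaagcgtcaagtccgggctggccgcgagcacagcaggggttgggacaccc
Ppp1r1c: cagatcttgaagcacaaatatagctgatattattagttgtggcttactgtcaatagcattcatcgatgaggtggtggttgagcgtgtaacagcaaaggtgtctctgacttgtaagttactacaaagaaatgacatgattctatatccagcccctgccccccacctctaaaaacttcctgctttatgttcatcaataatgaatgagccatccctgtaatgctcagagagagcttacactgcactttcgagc
Ppp1r27: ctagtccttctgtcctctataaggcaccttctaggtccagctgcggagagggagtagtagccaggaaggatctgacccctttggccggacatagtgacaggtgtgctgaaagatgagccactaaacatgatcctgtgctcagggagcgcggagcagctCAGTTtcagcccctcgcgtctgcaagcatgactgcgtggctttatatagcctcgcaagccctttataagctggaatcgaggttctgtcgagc

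In windows of 250 bases upstream, the MYB core was in 12 of 25 members that rose, 5 of 27 that fell and 42.6% of 27025 genes. A gene was counted if any of its listed promoters held the motif. TGACGT or ACGTCA, a core of the cAMP response element, was in 1 of 25 that rose, 7 of 27 that fell and 7.29% of these genes. GTTGCC or GGCAAC, a core of the RFX motif, was in 4 of 25 that rose, 2 of 27 that fell and 11.8% of these genes. These shares are given as a description, with no test.

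Ppp1r11, known as PP1 inhibitor 3, rose from a higher starting level than the inhibitor gene Ppp1r1c. It was at 22.8, 25.04 and 26.6 TPM at 8 dpp and at 264, 258, 292, 160 and 152 TPM at 18 dpp, so every mouse of 18 dpp was above every mouse of 8 dpp. The log2 fold change was 3.08 (SE 0.17, adjusted p = 1.31e-14). Ppp1r2, inhibitor 2, rose less, from 111 ± 7.71 to 141 ± 9.77 TPM (adjusted p = 3.47e-05). Ppp1r7, the conserved regulator Sds22, was at 14.3 ± 1.86 TPM and 14.3 ± 2.00 TPM, a log2 fold change of -0.01 (adjusted p = 0.96). Ppp1r13l, which encodes the p53 inhibitor iASPP, rose from 11.2 ± 2.43 to 51.8 ± 14.5 TPM (log2 fold change 2.08), and Ppp1r35 from 17.5 ± 1.68 to 71.0 ± 10.2 TPM.

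**Figure D3:**
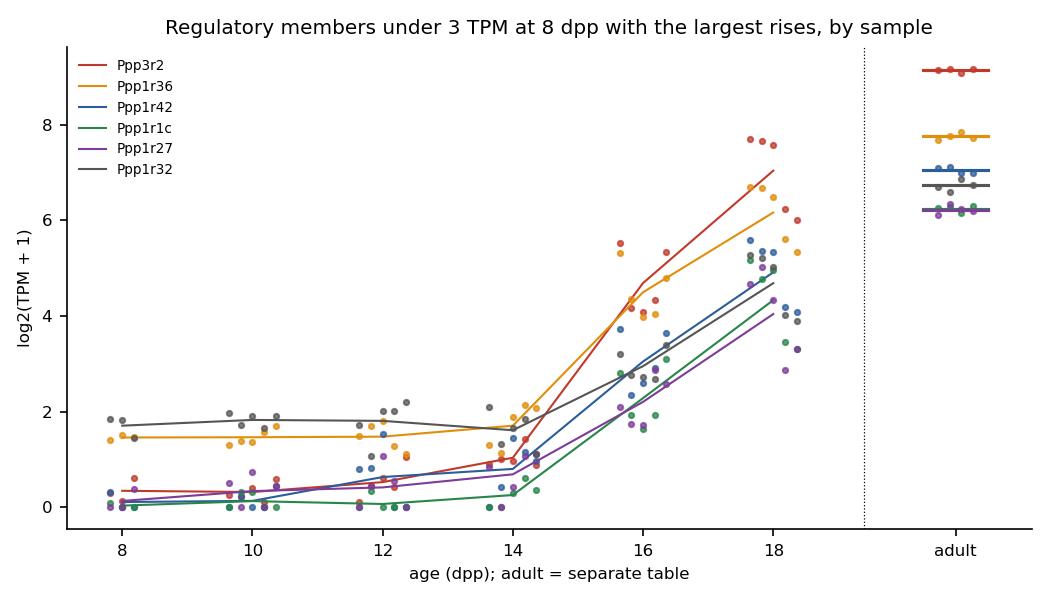
log2(TPM + 1) of Ppp3r2, Ppp1r36, Ppp1r42, Ppp1r1c, Ppp1r27 and Ppp1r32 in each mouse by age in dpp and in the 4 adult samples, which were normalized in a separate table, with each point a sample and each line or bar a mean. All 6 genes stay low to 14 dpp and are higher at 16 and 18 dpp, where mice 4 and 5 of 18 dpp lie below mice 1 to 3.

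Of the PP1 regulators that fell, Ppp1r16b, a membrane-bound regulator also called TIMAP, was at 33.3, 36.7 and 35.3 TPM at 8 dpp and at 7.67, 8.55, 6.23, 8.14 and 8.10 TPM at 18 dpp. Mice 4 and 5 of 18 dpp lay within the range of mice 1 to 3, and the gene fell by 2.05 on the log2 scale (adjusted p = 5.15e-13). Ppp1r15b, which brings PP1 to the translation factor eIF2 alpha, fell from 72.1 ± 0.458 to 36.6 ± 2.20 TPM. Ppp1r18, an actin-binding protein called phostensin, fell from 59.98 ± 2.19 to 30.9 ± 3.95 TPM. Ppp1r9a, the neuronal scaffold neurabin, fell from 51.5 ± 4.86 to 28.2 ± 3.03 TPM. Of the myosin phosphatase targeting subunits, Ppp1r12a fell by 0.33 and Ppp1r12b by 0.72 on the log2 scale, and Ppp1r12c had a log2 fold change of -0.05 (adjusted p = 0.612). The glycogen-targeting subunits were low, with Ppp1r3c at 2.00 ± 0.17 and 3.39 ± 0.618 TPM at 8 and 18 dpp and Ppp1r3e at 14.3 ± 0.85 and 9.19 ± 1.56 TPM. Ppp1r3f, the member on the X chromosome, was at 7.82 ± 0.869 and 5.16 ± 1.71 TPM with overlapping groups, and its fall (adjusted p = 0.00686) missed the threshold when only the 2 ages were fitted (adjusted p = 0.0526). Ppp1r3f overlaps Foxp3 on the opposite strand.

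Of the remaining PP1 regulators, Ppp1r8, the nuclear inhibitor NIPP1, fell from 107 ± 4.38 to 71.2 ± 6.00 TPM (adjusted p = 2.17e-07), and Ppp1r10, the nuclear targeting subunit PNUTS, rose from 65.6 ± 5.47 to 81.5 ± 8.53 TPM (adjusted p = 0.0014). Ppp1r13b, which encodes the p53 partner ASPP1, rose by 0.23 on the log2 scale, and Ppp1r16a by 0.36 and Ppp1r26 by 0.47. The scaffold gene Ppp1r9b, spinophilin, fell by 0.52 on the log2 scale, and Ppp1r1b, the inhibitor DARPP-32, fell by 0.56 with overlapping groups. Ppp1r14a, the smooth muscle inhibitor CPI-17, was at 22.0 ± 2.36 and 20.4 ± 8.96 TPM (adjusted p = 0.504). Ppp1r37 was at 63.6 ± 1.49 and 60.2 ± 6.02 TPM (adjusted p = 0.357).

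PP2A, a trimer of catalytic, scaffold and B subunits, moved in its catalytic and scaffold genes in different ways. Both catalytic genes fell, Ppp2ca from 70.5 ± 1.51 to 42.3 ± 7.98 TPM (adjusted p = 6.55e-08) and Ppp2cb from 123 ± 2.83 to 91.4 ± 8.05 TPM (adjusted p = 2.91e-07). Of the scaffolds, Ppp2r1a was at 247, 260 and 248 TPM at 8 dpp and at 102, 107, 102, 139 and 142 TPM at 18 dpp, a fall by 1.10 on the log2 scale (adjusted p = 3.67e-11). Ppp2r1b was at 41.7, 43.7 and 42.8 TPM at 8 dpp and at 77.1, 72.8, 69.0, 45.5 and 46.9 TPM at 18 dpp. The values of Ppp2r1b in mice 4 and 5 were near those at 8 dpp, and without those 2 mice the log2 fold change was 0.76, against 0.50 with them (adjusted p = 0.00167). The share of Ppp2r1b in the scaffold sum was 14.5% ± 0.17 at 8 dpp, 34.7% ± 9.13 at 18 dpp and, in the adult samples, 91.7% ± 0.627. The scaffold sum itself was 294 ± 7.87 TPM at 8 dpp, 181 ± 6.60 TPM at 18 dpp and 153 ± 7.04 TPM in the adult samples. Ppp2r1b overlaps Sik2 on the opposite strand.

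**Figure D4:**
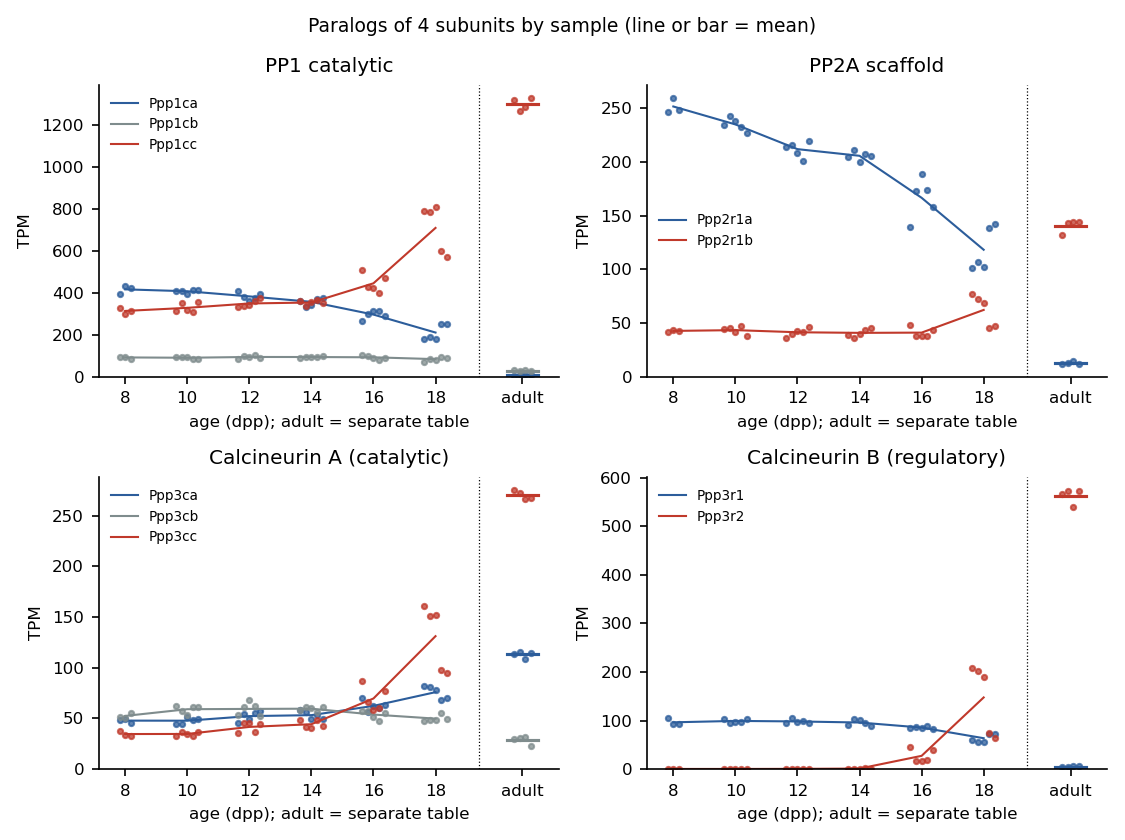
TPM of the paralogs of PP1 catalytic, PP2A scaffold, calcineurin A and calcineurin B subunits in each mouse by age in dpp and in the 4 adult samples of the separate table, each point a sample and each line or bar a mean. Ppp1cc, Ppp2r1b, Ppp3cc and Ppp3r2 are the highest paralogs of their sets in the adult samples, at 1298, 141, 270 and 562 TPM.

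The B subunits of PP2A, which select substrates, were also mixed. Of the 5 B56 genes, Ppp2r5c rose from 40.5 ± 1.49 to 124 ± 38.2 TPM (log2 fold change 1.53, adjusted p = 2.5e-09) and Ppp2r5e from 32.6 ± 0.424 to 48.6 ± 4.61 TPM. In the same family Ppp2r5a fell from 37.0 ± 0.517 to 15.5 ± 2.95 TPM, Ppp2r5d from 68.0 ± 5.84 to 36.7 ± 4.45 TPM, and Ppp2r5b from 22.8 ± 0.143 to 15.2 ± 4.10 TPM. Among the 3 B55 genes, Ppp2r2c rose from 7.59 ± 0.632 to 25.6 ± 2.69 TPM, and Ppp2r2a and Ppp2r2d fell by 0.29 and 0.72 on the log2 scale. Of the 3 B'' genes, Ppp2r3c rose from 24.7 ± 2.60 to 44.3 ± 6.08 TPM, Ppp2r3d rose by 0.36 and Ppp2r3a fell by 0.35 on the log2 scale.

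Calcineurin, the calcium-dependent phosphatase of a catalytic A and a calcium-binding B subunit, held the member with the largest fitted rise on log2(TPM + 1). Ppp3r2 (chr4:49678747-49682024, mm10, minus strand), the testis B subunit, was at 0.23, 0.09 and 0.52 TPM at 8 dpp, at 0.83 to 1.67 TPM at 14 dpp and at 16.1 to 44.9 TPM at 16 dpp. At 18 dpp it was at 208, 201, 190, 73.9 and 63.5 TPM in mice 1 to 5, above every mouse of 8 dpp. The log2 fold change from 8 to 18 dpp was 6.70 (SE 0.35, adjusted p = 4.28e-15) and 7.31 without mice 4 and 5 of 18 dpp. Ppp3r2, too, was in the gene table only through its values at later ages. It lies within Grin3a on the same strand, so reads of both genes could not be told apart by strand. Ppp3r1, the B subunit found in most tissues, fell from 96.3 ± 7.09 to 63.6 ± 7.94 TPM (adjusted p = 8.03e-08). The share of Ppp3r2 in the B subunit sum was 0.293% in the mice of 8 dpp and 1.10% in those of 14 dpp. By 16 dpp it was 23.4% ± 9.31, and by 18 dpp 66.0% ± 15.8. Among the A subunits Ppp3cc was at 37.8, 33.6 and 32.4 TPM at 8 dpp and at 161, 151, 152, 97.4 and 95.0 TPM at 18 dpp, without overlap (log2 fold change 1.86, adjusted p = 1.69e-11). Ppp3ca rose from 47.8 ± 1.96 to 75.9 ± 6.22 TPM (adjusted p = 7.3e-08). Ppp3cb was at 52.5 ± 3.01 and 49.8 ± 3.12 TPM, with a log2 fold change of -0.07 (adjusted p = 0.411) that turned to 0.10 under median-of-ratios scaling.

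PP5 and the PP4 and PP6 families covered the rest of the Ppp enzymes. Ppp5c, a catalytic subunit that carries its own protein-binding repeats, was at 45.5, 43.9 and 42.9 TPM at 8 dpp and at 108, 111, 111, 113 and 113 TPM at 18 dpp, with mice 4 and 5 level with the rest. Its log2 fold change was 1.32 (SE 0.079, adjusted p = 6.14e-14), and it was already called at 10 to 12 dpp. Ppp4c, the PP4 catalytic subunit, fell from 151 ± 1.40 to 133 ± 6.46 TPM (adjusted p = 0.00876), a fall that median-of-ratios scaling reduced to a log2 fold change of -0.003. Of its partners, Ppp4r1 fell by 1.03 on the log2 scale, from 156 ± 4.52 to 75.9 ± 3.92 TPM, and Ppp4r2 and Ppp4r3a fell by 0.41 and 0.31. Ppp4r4 rose from 7.06 ± 1.18 to 23.3 ± 4.73 TPM and Ppp4r3b from 49.4 ± 0.481 to 70.6 ± 8.32 TPM. Ppp6c was at 46.0 ± 2.15 and 40.4 ± 7.37 TPM (adjusted p = 0.175). Its partners Ppp6r1, Ppp6r2 and Ppp6r3 fell by 0.31, 0.59 and 0.24 on the log2 scale.

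The Ppm enzymes had 3 rises, 3 falls and 3 genes that did not pass the test, which is 33.3% each way beside 31.8% and 36.3% of all genes. Ppm1g, which acts on splicing factors, was at 149, 124 and 145 TPM at 8 dpp and at 414, 412, 367, 254 and 247 TPM at 18 dpp, without overlap (log2 fold change 1.24, adjusted p = 1.05e-09). Ppm1b, a regulator of stress kinases, rose from 74.99 ± 4.79 to 122 ± 24.4 TPM, and Ppm1m was at 70.0 ± 8.59, 128 ± 4.90 and 88.9 ± 13.5 TPM at 8, 14 and 18 dpp. Ppm1l was at 27.2, 27.6 and 25.6 TPM at 8 dpp and at 7.67, 7.11, 7.40, 7.35 and 7.95 TPM at 18 dpp, a fall by 1.71 on the log2 scale (adjusted p = 2.05e-12). Ppm1a, which removes phosphate from SMAD proteins, fell from 115 ± 1.65 to 52.2 ± 7.20 TPM, and Ppm1f from 13.8 ± 0.949 to 8.77 ± 1.69 TPM. Ppm1d, the p53 target Wip1, was at 39.1 ± 4.24 and 45.5 ± 8.95 TPM (adjusted p = 0.154), and it was called a rise under median-of-ratios scaling (adjusted p = 0.0218). Ppm1e and Ppm1k also did not pass the test, and both were called falls under quantile normalization.

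A list of proteins that bind or modify these phosphatases, and of other phosphatases, had 45 genes in the gene table that carry no Ppp or Ppm number. Of these 12 rose, 23 fell and 10 were not called, beside 31.8% of all genes rising and 36.3% falling. Their median log2 fold change was -0.34, against -0.09 over all genes. The list was chosen with earlier results of these data known, so this gap is not read as a shift of phosphatase partners. The 7 other phosphatases (Pptc7, Pdp1, Pdp2, Ilkap, Phlpp1, Phlpp2 and Pgam5) held 6 of the falls and no rise, and the 38 binding proteins and modifiers held 12 rises and 17 falls. Nek2, a kinase that binds PP1, rose from 37.2 ± 5.05 to 180 ± 43.6 TPM, and Sgo2a, which holds PP2A at meiotic centromeres, rose from 13.0 ± 1.81 to 35.2 ± 6.58 TPM. Its relative Sgo1 had a log2 fold change of -0.34 (adjusted p = 0.0788). Inhibitors of PP2A moved both ways. Anp32a and Anp32e fell from 234 ± 19.01 to 85.6 ± 14.7 TPM and from 175 ± 10.6 to 76.5 ± 9.42 TPM, and Set and Arpp19 fell by 0.54 and 0.89 on the log2 scale. Cip2a rose from 24.7 ± 3.77 to 33.7 ± 1.83 TPM, and Ensa had a log2 fold change of 0.07 (adjusted p = 0.415). Of the calcineurin regulators, Rcan3 fell from 26.1 ± 2.15 to 9.98 ± 1.503 TPM, Rcan1 fell by 0.22 on the log2 scale, and Rcan2 had a log2 fold change of 0.12 (adjusted p = 0.628).

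The summed TPM of the catalytic subunits was 1882 ± 28.6 at 8 dpp, 2351 ± 196 at 18 dpp and 3098 ± 39.5 in the adult samples. That of the regulatory subunits was 2832 ± 10.4, 3000 ± 234 and 3752 ± 32.4. In the adult samples the most abundant catalytic subunits were Ppp1cc (1298 ± 27.4 TPM), Ppm1g (685 ± 20.5 TPM) and Ppp3cc (270 ± 4.37 TPM). The most abundant regulatory subunits were Ppp3r2 (562 ± 16.1 TPM), Ppp1r11 (439 ± 25.6 TPM) and Ppp2r5c (316 ± 14.2 TPM). TPM is corrected for transcript length, so genes can be compared on it. The juvenile and adult tables were normalized separately, so levels of both were set side by side without a test.

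In that side-by-side view 23 of 75 members (30.7%) had all 4 adult values above all 5 values at 18 dpp, where 22.3% of 20366 genes did. For 44 members (58.7%) all adult values were below, where 53.3% of genes were. These counts depend on the scaling: with median-of-ratios factors computed over both tables, 37 members were above and 33 below, beside 34.5% and 40.8% of all genes. Among catalytic subunits 6 of 20 were above and 12 below, and among regulatory subunits 17 of 55 were above and 32 below. Of the 30 members that rose from 8 to 18 dpp, 20 were above and 7 below in the adult samples, and of the 35 that fell, 2 were above and 31 below. The same split was not counted over all genes that rose or fell, so it is not read as a trait of the members. Members that rose but were below in the adult samples included Ppp2r2c, at 25.6 ± 2.69 TPM at 18 dpp and 0.28 ± 0.20 TPM in the adult samples, and Ppm1m, at 88.9 ± 13.5 and 8.67 ± 1.33 TPM, whose rise was not called under quantile normalization (adjusted p = 0.0882). Members that fell yet were above were Ppp1r9b, at 36.5 ± 4.21 and 52.0 ± 3.91 TPM, and Ppp2r2d, at 69.4 ± 8.98 and 93.5 ± 3.26 TPM. Ppp1ca, Ppp3r1 and Ppp1r15a were at 8.18 ± 1.76, 4.92 ± 1.08 and 4.00 ± 0.81 TPM in the adult samples, against 211 ± 37.6, 63.6 ± 7.94 and 93.4 ± 21.6 TPM at 18 dpp. Of the 75 members 58 (77.3%) were at 3 TPM or more in all 4 adult samples, against 55.7% of all genes. The members are all protein-coding while all genes include non-coding entries, so this gap is not read as a trait of the members. The Sertoli, peritubular and spermatogonium marker sums were also lower in the adult samples than at 18 dpp and the spermatid sum higher, and their part in these values was not tested.

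**Figure D5:**
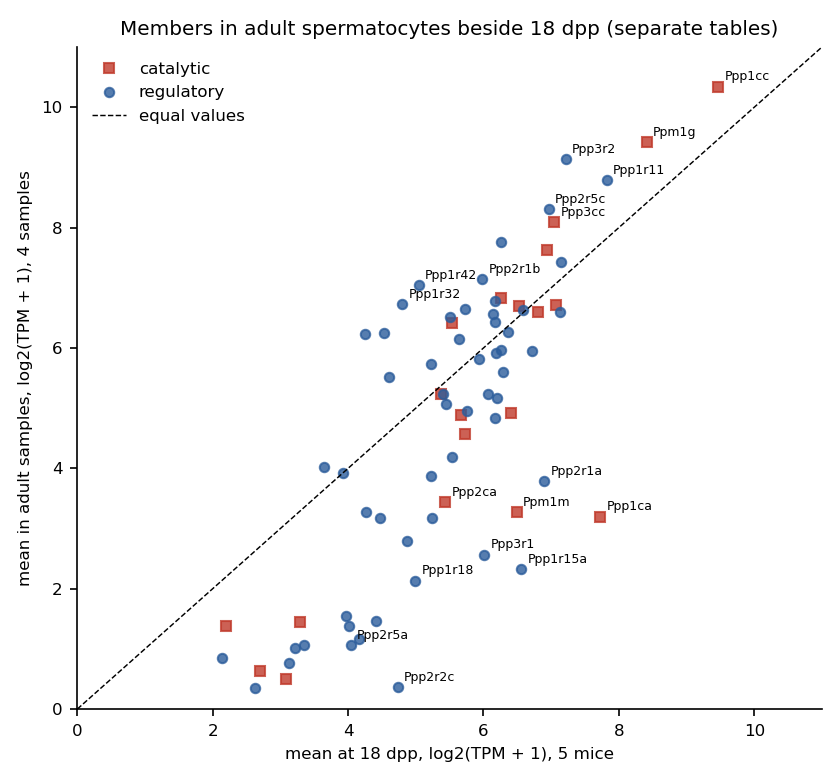
Mean TPM of each subunit gene, shown as log2(mean + 1), in the 5 mice of 18 dpp (horizontal) and the 4 adult samples (vertical), from tables normalized separately. The dashed line is at equal values, and catalytic and regulatory subunits are squares and circles. Ppp1cc, Ppp3r2 and Ppp1r11 lie above the line, and Ppp1ca, Ppp2r1a and Ppp3r1 lie below it.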

How the data were processed

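RNA-seq was analysed from 28 juvenile germ cell samples and 4 adult spermatocyte samples. Per the labels and the study's methods, poly-A libraries were aligned by the authors with Bowtie 1.0.0 and quantified with RSEM 1.2.8 against mm10 transcripts. TPM values were deposited by the authors for transcripts and for the adult samples. The deposited juvenile gene table held exp(log2(TPM + 1)) - 1, which was converted back to TPM; the sums were then 990305 to 993726 per mouse, and only 2 members differed from the sum of their transcripts by more than 0.2 TPM. TPM keeps no depth, so no counting intervals were made. limma 3.58.1 (R 4.3.3) was fitted to log2(TPM + 1) of 20368 genes with 6 ages in 1 model, and p-values were adjusted over all genes by the Benjamini-Hochberg method. Transcript usage was tested in percent of a gene's TPM. On simulated data with 200 changed genes among 20368, the test recovered 54% and 90% of changes of 0.5 and 1 on the log2 scale. This was for the 18 against 8 dpp comparison. In the real comparison 68.2% of genes were called, so these rates need not hold there. The genes named in full were all Ppp catalytic genes, the 3 catalytic and 8 regulatory genes of largest rise and of largest fall, genes on the X chromosome, testis genes and core partners, and the highest adult genes; other members are named within their family, chosen after their values were seen. The members, lists and motifs were chosen with earlier results of these data known. Promoter windows were trimmed where they overlapped an annotated gene. Same-numbered mice of different ages were not paired. Python 3.11.15 was used for the rest.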

Additional observations from a re-analysis of the deposited data

Results flagged for a closer look

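Of 210 groups of 4 or 5 samples tested for a sample far from the others, 10 were flagged, and chance flags about 1 in 20 groups. At 16 dpp, Ppm1l was at 18.2 TPM in mouse 3 (others 10.2 to 12.3 TPM), and Ppp2r5a at 19.5 TPM in mouse 5 (others 21.9 to 22.6 TPM). At 10 dpp, Ppp1ca was at 394 TPM in mouse 3 (others 408 to 411 TPM), and Ppp5c at 39.9 TPM in mouse 1 (others 49.8 to 52.2 TPM). At 12 dpp, Ppp1r13l was at 17.3 TPM in mouse 3 (others 12.6 to 13.0 TPM), and Ppp1r1c at 0.26 TPM in mouse 2, the others being listed at 0. At 14 dpp, Ppp3r2 was at 1.67 TPM in mouse 6 (others 0.83 to 1.02 TPM). In the adult samples, Ppp1r3f was listed at 0 TPM in sample 2 (others 0.34 to 0.39 TPM), Ppp1r7 was at 12.7 TPM in sample 2 (others 14.7 to 14.9 TPM), and Ppp2r1b was at 132 TPM in sample 1 (others 143 to 144 TPM).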

How the results depend on the processing

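Counting Ppp catalytic genes alone gave 4 rises and 4 falls. Usage calls numbered 17 with a change of at least 10 points, beside 6.19% of all transcripts. The 12 to 14 dpp count became 1 with later-numbered mice as a covariate, and the 8 to 10 dpp count became 1 under median-of-ratios factors, 1 with mice 1 to 3 alone and 2 with 18 dpp mice 1 to 3 and all other mice. Scaling both tables by median-of-ratios put 37 members above and 33 below 18 dpp in the adult samples, beside 34.5% and 40.8% of all genes. Leaving out each sample in turn gave 0 to 1 members from 8 to 10 dpp (1 without 18 dpp mouse 5) and 0 to 1 from 12 to 14 dpp (1 without 12 dpp mouse 5), 18 to 22 from 10 to 12 dpp, 24 to 38 from 14 to 16 dpp and 51 to 58 from 16 to 18 dpp. Catalytic subunits rising numbered 6 to 8 and falling 7 to 8, and regulatory subunits rising 22 to 23 and falling 25 to 28. Where no share of all genes is printed beside a count under another setting, that share was not counted. Reversed values were Ppp1cb at 0.038 and Ppp3cb at 0.10 under median-of-ratios factors, and Ppp1r7 at 0.16 under median-of-ratios factors, 0.029 with mice 1 to 3 alone, 0.029 with 18 dpp mice 1 to 3 and all other mice, and 0.005 with the replicate block; leaving out samples, Ppp1r7 ranged from -0.099 to 0.077. The cause of these was not tested. For the named genes, 444 values under other settings kept their direction and side of the threshold, 2 became weaker, 3 stronger and 6 reversed. Same-numbered mice did not deviate together (mean r 0.005 over 57 pairs, 8 of 28 mice closest to their own number), and with the replicate block 7 catalytic subunits rose and 8 fell, 23 regulatory subunits rose and 28 fell, and usage gave 4 transcripts.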

Other observations

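Among the 12 symbols that did not reach the juvenile gene table, 2 were higher in the adult samples than in any juvenile mouse by more than their spread. Ppm1j was at 9.52 ± 2.73 TPM (SD, n = 4) and Ppp2r2b at 4.59 ± 1.96 TPM in the adult samples, against highest juvenile values of 2.95 and 0.43 TPM. The tables were normalized separately, so these values are side by side without a test.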
